A study of Homo sapiens with 3 samples.

Results

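The 5 genes described here, NUDT21, CPSF6, WDR33, CSTF3 and PCF11, encode proteins of the machinery that cuts nascent RNA and adds its poly(A) tail. The data are counts of reads at polyadenylated RNA 3′ ends in HEK293T, a human cell line of embryonic kidney origin, measured by 2P-seq, in which cDNA is primed on the poly(A) tail. The 3 groups had 1 library each (n = 1): RNA captured after 30 min in 4-thiouridine (4sU 30 min), RNA captured after 60 min in 4-thiouridine (4sU 60 min), and an input library named after the 30 min labelling, which the study uses as steady-state RNA and whose treatment label reads none. 4-Thiouridine is a uridine analogue that enters RNA made while it is in the medium, so captured RNA is enriched for new molecules. Captured RNA skipped the initial poly(A) selection of the protocol. The sources used here do not say whether the input did too, so that step and labelling cannot be told apart. Without replicates, the differences below have no check of biological spread, and all intervals are 95% intervals of counting error only.

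The genes were chosen by their function, with earlier results of these data known. They were found by position, on the strand of the gene: NUDT21 at chr16:56462500-56485500 (minus strand), CPSF6 at chr12:69633200-69668800 (plus), WDR33 at chr2:128458200-128569000 (minus), CSTF3 at chr11:33105800-33183200 (minus) and PCF11 at chr11:82867900-82899500 (plus). These windows are in hg19 numbering, whereas the deposited tables name no build and no genes. As a check, the length of each gene in RefSeq (GRCh38.p14) was laid upstream from its outermost 3′ end. The implied gene start then lay 145 to 249 nt inside the upstream edge of the window for NUDT21, CPSF6, CSTF3 and WDR33. For PCF11 it lay 1386 nt outside. If that gene starts within its window, its outermost retained end lies upstream of the annotated gene end by at least this distance, so the last ends of PCF11 are the last that passed the filter and may not be those of the full-length transcript. No exon or intron annotation of this build was used here, so ends are placed by distance and not assigned to introns, exons or untranslated regions. No sequence of this build was used here either, so priming inside an RNA, away from a poly(A) tail, was not tested. The word end is used for every retained site with this limit.

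Positions within 24 nt of a local maximum were merged into a 3′ end. The windows held 326 such ends, of 779809 nuclear ends in all. Of these, 36 had a mean of at least 1 CPM (counts scaled to a total of 1e+06 nuclear counts) over the libraries and are described below, against 40146 nuclear ends of the whole series. Ends within 5000 nt of a gene's outermost retained end are called last ends, and retained ends further upstream are called inner ends. There were 18 of each. The 36 ends held between 76.7% and 97.2% of the counts of their genes. The weakest retained end, a CSTF3 inner end at chr11:33163051, had a mean of 1.003 CPM (4 counts in 4sU 30 min, 3 in 4sU 60 min, 69 in input), and the strongest end left out, in WDR33 at chr2:128520079, had 0.995 CPM (9, 7 and 30 counts).

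The machinery reads several signals at once. The cleavage and polyadenylation specificity factor (CPSF), of which WDR33 is a subunit, binds the AAUAAA signal upstream of the cut, and the cleavage stimulation factor (CstF), with CSTF3 (CstF-77) as its scaffold, binds the U- and GU-rich element downstream. Cleavage factor I, built from NUDT21 (CFIm25) and CPSF6 (CFIm68), binds UGUA motifs and favours distal sites in many human genes, while PCF11 belongs to cleavage factor II and also acts in transcription termination. Such genes are known to carry early poly(A) sites of their own. CSTF3 has a conserved intronic site that gives a short mRNA, and PCF11 has one near the start of its gene that lowers the full-length mRNA.

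With last ends taken within 5000 nt, inner ends held a larger share of counts in 4sU 30 min than in input in all 5 genes. With 2000 nt the direction turned in NUDT21 (-5.77 points), CPSF6 (-18.9 points) and WDR33 (-15.1 points), whose proximal last ends then count as inner. PCF11 and CSTF3 have no retained end between 2000 and 5000 nt, so their differences could not change. Within 5000 nt the share was 20.3% against 2.66% in NUDT21, 16.8% against 2.88% in CPSF6, 69.8% against 45.1% in PCF11, 72.4% against 64.3% in CSTF3 and 17.5% against 13.9% in WDR33. The differences were 17.7 points (14.8 to 20.8), 13.9 points (11.1 to 17.1), 24.7 points (19.995 to 29.3), 8.13 points (4.20 to 11.9) and 3.58 points (0.498 to 6.76). A share within a gene does not depend on how libraries are scaled. In 4sU 60 min the share was 27.5% in NUDT21, 7.5% in CPSF6, 57.3% in PCF11, 66.7% in CSTF3 and 11.6% in WDR33. The interval of the difference from input excluded 0 in NUDT21, CPSF6 and PCF11 at this time, and included it in CSTF3 (-3.51 to 7.83) and WDR33 (-6.03 to 2.16). In NUDT21 this difference was 24.9 points, and 2.90 points (0.646 to 6.42) without 1 inner end whose counts all lay at 1 nucleotide. In PCF11 it was 12.2 points, and 2.18 points (-4.08 to 8.54) with a filter of 5 CPM on ends.

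**Figure D1:**
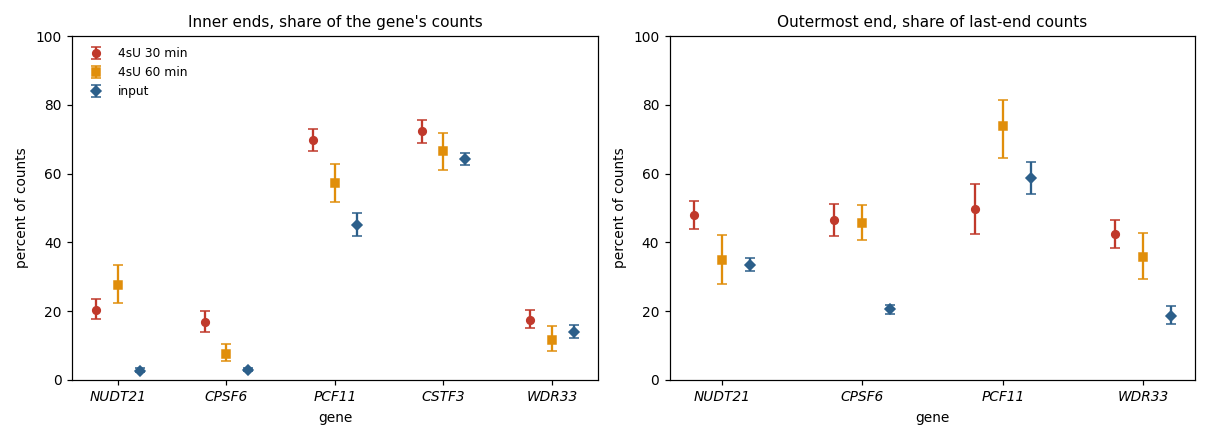
Left, percentage of each gene's counts at inner ends; right, percentage of last-end counts at the outermost end (CSTF3 has a single last end and is not shown there). Points are the 3 libraries, 4sU 30 min, 4sU 60 min and input from left to right, with Wilson 95% intervals. With last ends taken within 5000 nt, as drawn, inner shares in 4sU 30 min, from 16.8% to 72.4%, lie above those of input, from 2.66% to 64.3%, within each gene. With 2000 nt the direction turned in NUDT21, CPSF6 and WDR33.

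Of the 18 inner ends, 14 were called higher in 4sU 30 min than in input (at least 2-fold, with an interval of the ratio that excluded 1) and 2 were called lower. Of the 18 last ends, 2 were called higher and 6 lower. Among all nuclear ends that passed the same filter, 48.9% were called higher and 12.4% lower. The median log2 ratio was 2.00 for inner ends and -0.20 for last ends, beside 0.97 for all ends, whose quartiles were -0.26 and 2.42. At 60 min, 8 inner ends were called higher than in input and 2 lower, and 1 last end was called higher and 10 lower, where 37.5% of all ends were called higher and 17.0% lower. An end that is weak in input can pass a filter on mean CPM only if it is high in captured RNA, so these counts describe the ends that passed. When all counts further than 5000 nt upstream were taken, with no filter on ends, the difference between 4sU 30 min and input stayed above 0 in each gene. It was then 18.6 points in CPSF6 and 14.9 points in CSTF3, the genes it moved most at this time.

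Scaling moves the ratios between libraries but not the shares. Relative to CPM of nuclear counts, trimmed mean of M-values (TMM) scaling would move every log2 ratio by -0.36 for 4sU 30 min over input, by -0.10 for 4sU 60 min over input and by 0.26 for 60 over 30 min. Counting mitochondrial reads in the totals would move them by -0.44, -0.43 and 0.016, as mitochondrial reads made up 31.8%, 31.1% and 7.46% of the counts in 4sU 30 min, 4sU 60 min and input. The nuclear totals were 9652023, 6151986 and 32768468 counts, and the precision at an end follows its own count, which at some inner ends was lowest in input.

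**Figure D2:**
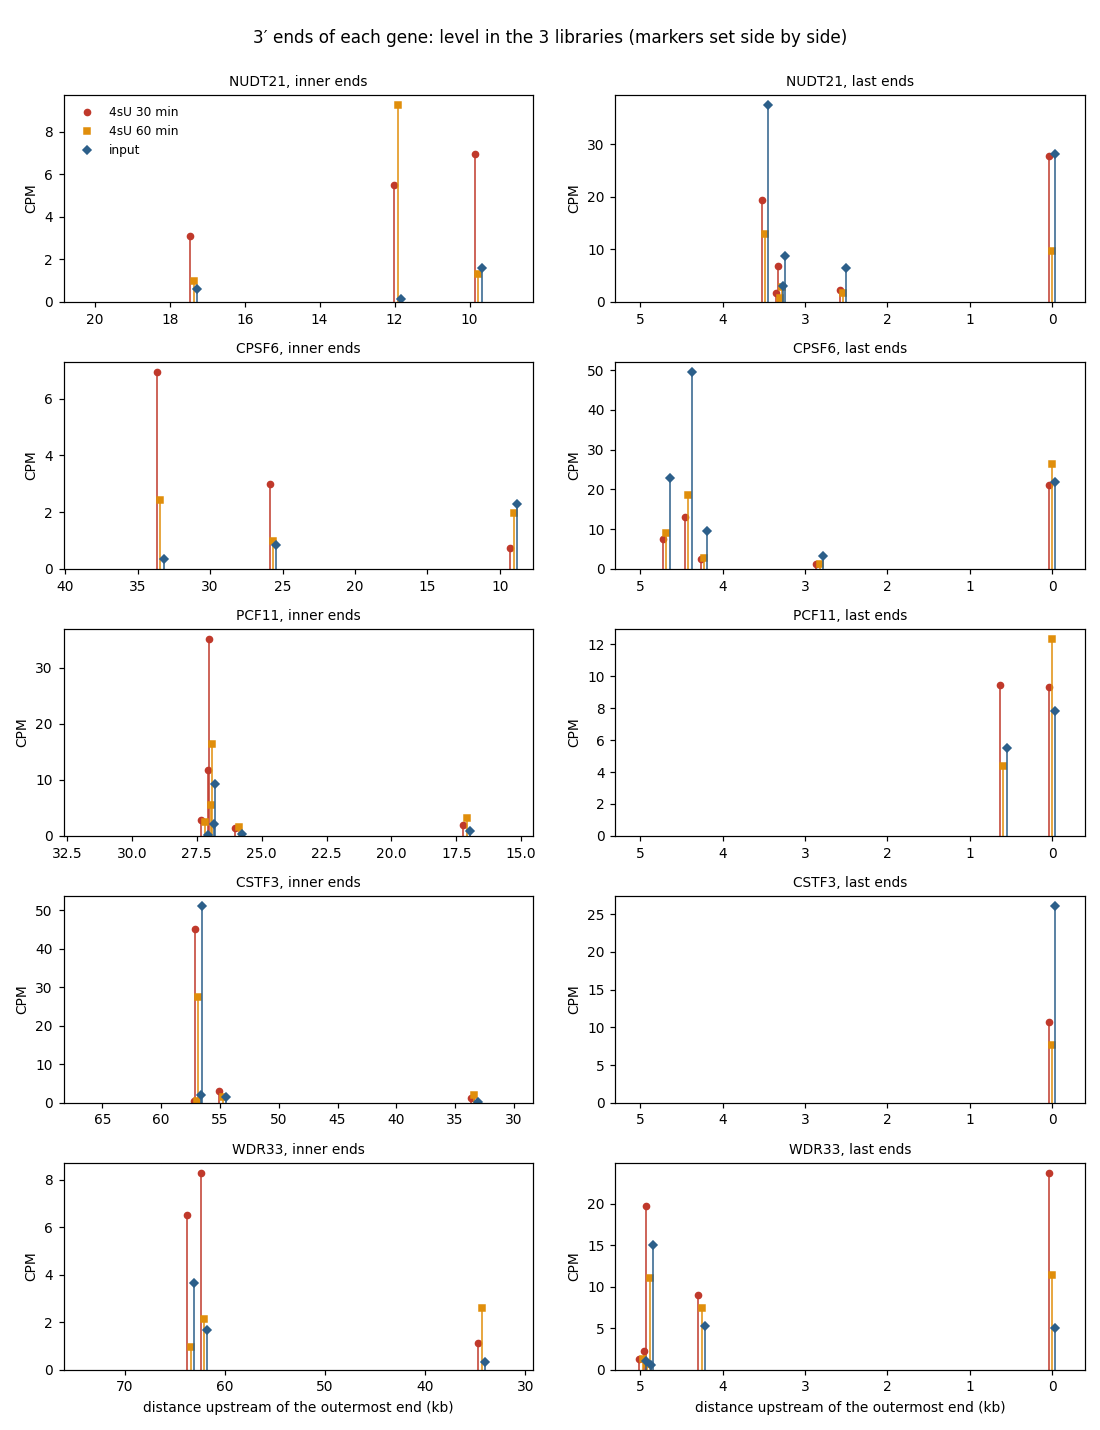
Level of each retained 3′ end, in CPM of nuclear counts, against its distance upstream of the gene's outermost end in kb, with upstream to the left. Inner ends are in the left panels and last ends in the right ones, and the 3 libraries are drawn side by side at each end (4sU 30 min, 4sU 60 min, input). The PCF11 ends 26956 and 26913 nt upstream are highest in 4sU 30 min, and the CSTF3 end 56847 nt upstream is the tallest of its gene in each library.

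PCF11 had its strongest 3′ end close to the start of its window. This end, at chr11:82869921, 2021 nt from the upstream edge and 26913 nt upstream of the outermost end, had 35.2 CPM in 4sU 30 min (340 counts), 16.4 CPM in 4sU 60 min (101 counts) and 9.19 CPM in input (301 counts). Its neighbour at chr11:82869878 had 11.7, 5.53 and 2.08 CPM in the same order. Both were highest at 30 min and lowest in input. The ratios of 4sU 30 min to input were 3.83 (3.27 to 4.49) and 5.64 (4.14 to 7.74), and those of 4sU 60 min to input were 1.79 (1.41 to 2.25) and 2.66 (1.71 to 4.08). Both were called lower at 60 than at 30 min, by 2.15-fold (1.71 to 2.71) and 2.12-fold (1.43 to 3.21). These calls depend on the scaling. The log2 ratios were -1.10 and -1.08, and TMM or median-of-ratios scaling would move them by 0.26 or 0.30. Neither end would then reach 2-fold.

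A weaker PCF11 end upstream of these, at chr11:82869640, had 28 and 15 counts in 4sU 30 min and 4sU 60 min against 4 in input, a ratio of 23.8 (8.31 to 93.2) and 19.97 (6.36 to 82.7). The ends at chr11:82870948 and chr11:82879729 had 13 and 18 counts at 30 min, 10 and 20 at 60 min, against 9 and 26 in input. All 5 inner ends of PCF11 were called higher than input at 30 min and 4 of them at 60 min.

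The last ends of PCF11 lay 591 nt apart and were much closer to the input. The outermost end at chr11:82896834 had 9.32 CPM in 4sU 30 min, 12.4 CPM in 4sU 60 min and 7.81 CPM in input, and the end at chr11:82896243 had 9.43, 4.39 and 5.49 CPM. Neither was called against input at either time. An end on the opposite strand, with 24, 20 and 32 counts, lay 7 nt from the outermost one. The outermost end held 49.7% of last-end counts in 4sU 30 min, 73.8% in 4sU 60 min, against 58.7% in input, so the difference from input was -8.99 points (-17.5 to -0.394) at 30 min and had the other sign, 15.1 points (4.78 to 23.9), at 60 min. Summed, the inner ends were 4.26-fold (3.73 to 4.86) and the last ends 1.41-fold (1.18 to 1.68) their input level at 30 min, and the odds of an inner over a last end were 3.02-fold (2.42 to 3.78) higher in 4sU 30 min than in input. The inner share was 57.3% in 4sU 60 min against 69.8% in 4sU 30 min, a difference of -12.5 points (-18.9 to -6.18).

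Most CSTF3 counts lay at an inner end in every library. The end at chr11:33162978, 56847 nt upstream of the last end and 20222 nt from the upstream edge of the window, had 45.2 CPM in 4sU 30 min (436 counts), 27.5 CPM in 4sU 60 min (169 counts) and 51.2 CPM in input (1677 counts). It was the strongest of the 36 ends by mean CPM. The single last end, at chr11:33106131, had 10.7 CPM (103 counts), 7.64 CPM (47 counts) and 26.1 CPM (856 counts). Both were highest in input, and the last end lay further below it in captured RNA. The inner end was 1.13-fold lower at 30 min than in input (1.02 to 1.26) and the last end 2.45-fold lower (1.99 to 3.03). At 60 min the inner end was 1.86-fold lower (1.59 to 2.20) and the last end 3.42-fold lower (2.55 to 4.69).

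The odds of a CSTF3 inner over last end were 2.22-fold (1.76 to 2.81) higher in 4sU 30 min than in input and 1.96-fold (1.40 to 2.79) higher in 4sU 60 min. Between 60 and 30 min the odds ratio was 0.884 with an interval that included 1 (0.594 to 1.33). The share of all gene counts differed from input by 2.36 points at 60 min. It differed by 13.7 points (8.68 to 18.0) when all upstream counts were taken. The retained ends held 82.8% of the gene's counts in 4sU 60 min, against 94.9% in input. Of the other inner ends, chr11:33160894 and chr11:33139490 were 2.17-fold and 4.15-fold higher than input at 30 min, from 30 and 11 counts. The minor end at chr11:33163051, just upstream of the main one, was 5.08-fold lower (1.90 to 19.2). The position of the main cut was alike in the libraries: 69.95%, 66.3% and 69.0% of counts at that end lay at 1 nucleotide in 4sU 30 min, 4sU 60 min and input.

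NUDT21 had few counts at inner ends in the input. Summed, these ends were 6.61-fold (4.99 to 8.82) their input level at 30 min and 4.91-fold (3.51 to 6.87) at 60 min. At 60 min 57 of the 71 inner counts lay at 1 end, chr16:56474970, described below. At chr16:56472817, 9764 nt upstream of the outermost end, there were 6.94 CPM in 4sU 30 min (67 counts), 1.30 CPM in 4sU 60 min (8 counts) and 1.62 CPM in input (53 counts). At chr16:56480417 the levels were 3.11, 0.975 and 0.610 CPM (30, 6 and 20 counts). These ends stood apart from the input at 30 min alone: the ratios were 4.29 (2.95 to 6.27) and 5.09 (2.80 to 9.46), against 0.804 (0.330 to 1.70) and 1.60 (0.525 to 4.13) at 60 min. Both were called lower at 60 than at 30 min, by 5.34-fold (2.56 to 12.9) and 3.19-fold (1.31 to 9.37).

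The remaining inner end of NUDT21, at chr16:56474970, differed from these. It had 53 counts at 30 min and 57 at 60 min, against 4 in input, or 5.49, 9.27 and 0.122 CPM, and all of its counts lay at 1 nucleotide. Its ratio to input was 45.0 (16.6 to 171) at 30 min and 75.9 (28.1 to 288) at 60 min, and it was 1.69-fold higher (1.14 to 2.50) at 60 than at 30 min. No other retained end had 90% or more of its counts at 1 nucleotide. The origin of this pile was not tested. Without it the NUDT21 inner share was 10.6 points above input at 30 min (8.29 to 13.3). The change from 30 to 60 min then reversed, to -7.72 points (-11.1 to -3.58), against 7.19 points (1.26 to 13.6) with it.

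The last ends of NUDT21 fell into a distal end at chr16:56463053 and a proximal cluster from 2538 to 3484 nt upstream of it, led by chr16:56466537. The distal end had 27.8 CPM in 4sU 30 min (268 counts), 9.59 CPM in 4sU 60 min (59 counts) and 28.0 CPM in input (918 counts). The proximal leader had 19.4 CPM (187 counts), 12.8 CPM (79 counts) and 37.4 CPM (1227 counts). At 30 min the distal end was level with input on this scale, 1.01-fold lower (0.880 to 1.16), while the proximal leader was 1.93-fold lower (1.66 to 2.27). The log2 ratio of the distal end was -0.013. TMM scaling would move it by -0.36, so that the distal end would lie below input too. At 60 min they were alike, 2.92-fold lower (2.24 to 3.87) and 2.92-fold lower (2.32 to 3.71). The distal end thus held 47.9% of last-end counts in 4sU 30 min, 34.7% in 4sU 60 min, against 33.5% in input. The difference between 60 and 30 min was -13.2 points (-21.2 to -4.75). All 5 last ends of NUDT21 were called lower than input at 60 min.

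CPSF6, the partner of NUDT21, showed the largest 30 min ratio to input among ends spread over several nucleotides after the PCF11 end at chr11:82869640. Both ends are weak in input and passed the filter on mean CPM only through captured RNA, so a high ratio was partly selected for. The CPSF6 inner end, at chr12:69634702, lay 1502 nt from the upstream edge of the window and 33432 nt upstream of the outermost end. It had 6.94 CPM in 4sU 30 min (67 counts), 2.44 CPM in 4sU 60 min (15 counts) and 0.336 CPM in input (11 counts), so the libraries were ordered 30 min, 60 min, input. The ratio to input was 20.7 (10.8 to 43.4) at 30 min and 7.26 (3.12 to 17.5) at 60 min, and the level at 60 min was 2.85-fold lower (1.61 to 5.37) than at 30 min. The inner end at chr12:69642470 had 29, 6 and 27 counts, 3.65-fold higher than input at 30 min (2.08 to 6.40) and 1.18-fold (0.3996 to 2.93) at 60 min. The inner end nearest to the last ends, at chr12:69659089, went the other way, 3.16-fold lower than input at 30 min (1.46 to 8.12), from 7 counts against 75.

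Among the last ends of CPSF6, the outermost stood apart from the others. At chr12:69668134 there were 21.0 CPM in 4sU 30 min (203 counts), 26.5 CPM in 4sU 60 min (163 counts) and 21.9 CPM in input (717 counts). The strongest proximal end, at chr12:69663719, had 13.1 CPM (126 counts), 18.5 CPM (114 counts) and 49.6 CPM (1624 counts). In captured RNA the outermost end was the higher of this pair, and in input the proximal one was. The proximal end was 3.80-fold lower than input at 30 min (3.17 to 4.59) and 2.67-fold lower at 60 min (2.21 to 3.26), and the outermost end was 1.04-fold lower (0.889 to 1.22) and 1.21-fold higher (1.02 to 1.44). The other 3 proximal ends, at chr12:69663450, chr12:69663906 and chr12:69665310, were also called lower at both times, by between 2.36- and 3.82-fold. The level of the outermost end against input depends on the scaling. Its log2 ratios were -0.057 at 30 min and 0.28 at 60 min. TMM scaling would move the 30 min value by -0.36, further below input. Mitochondrial reads in the totals would move the 60 min value by -0.43, which turns its sign. The outermost end held 46.3% of last-end counts in 4sU 30 min, 45.7% in 4sU 60 min, against 20.5% in input, a difference of 25.9 points (21.1 to 30.7) from input at 30 min and 25.2 points (19.9 to 30.5) later.

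**Figure D3:**
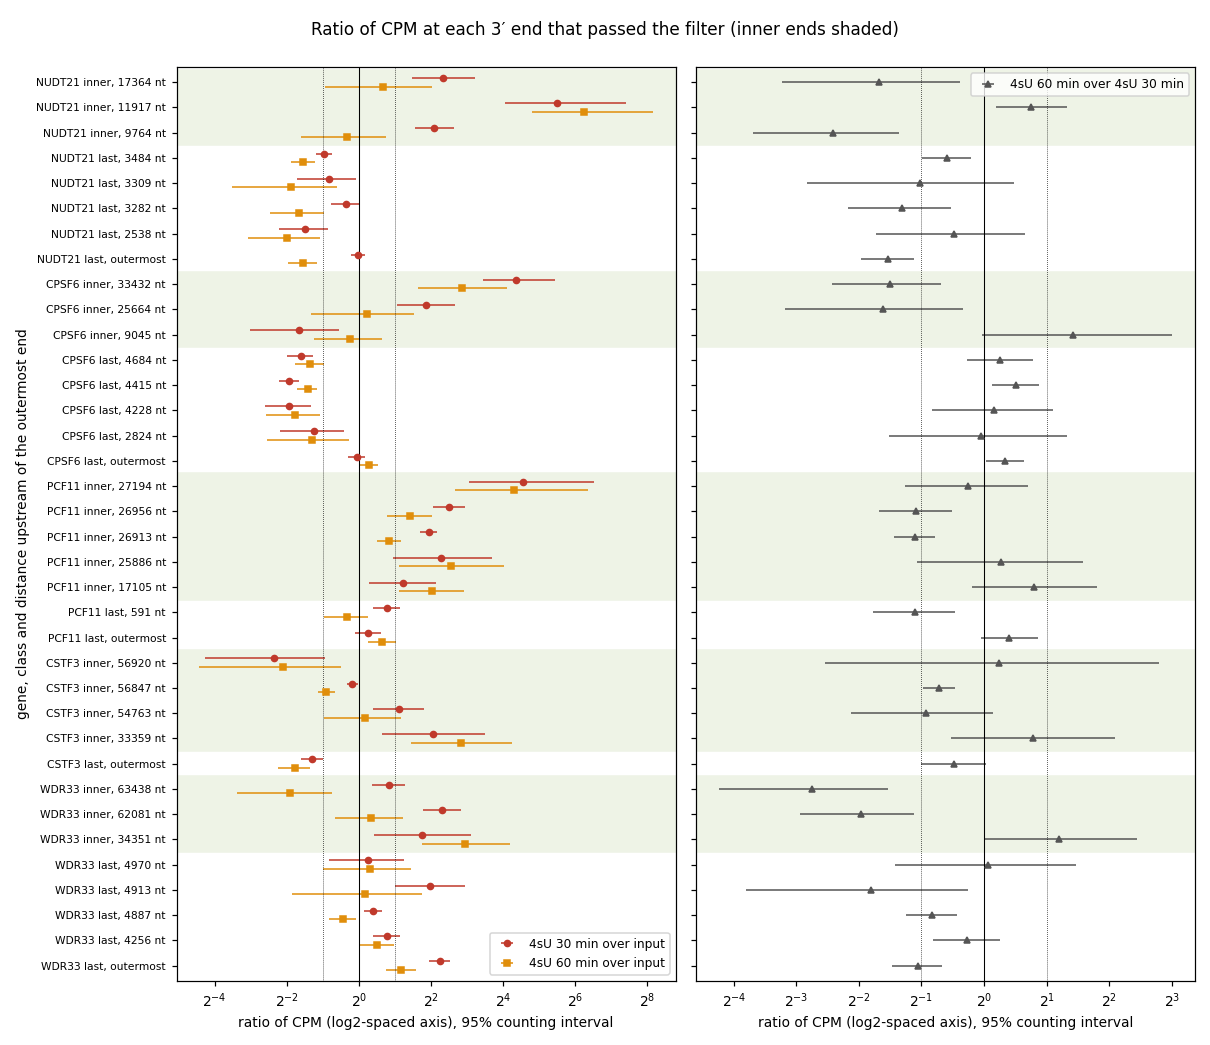
Ratio of CPM at each of the 36 retained ends with exact 95% intervals on a log axis, 4sU 30 min and 4sU 60 min over input on the left and 4sU 60 min over 4sU 30 min on the right. Ends run from upstream to downstream within a gene, inner ends are shaded, and dotted lines mark 2-fold. Inner ends lie mostly to the right of 1 against input at 30 min (14 of 18 called higher, beside 48.9% of all nuclear ends that passed the filter). An end weak in input passed that filter only if it was high in captured RNA. No end was called higher at 60 than at 30 min on this scale, beside 8.12% of all nuclear ends. With TMM or median-of-ratios scaling 4 inner ends were called higher, and 1 was with mitochondrial reads in the totals.

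WDR33 was higher in 4sU 30 min than in input at inner and last ends alike, with summed ratios of 2.83 (2.27 to 3.52) and 2.08 (1.87 to 2.32). The outermost end at chr2:128458607 had 23.7 CPM in 4sU 30 min (229 counts), 11.4 CPM in 4sU 60 min (70 counts) and 5.005 CPM in input (164 counts). Its ratio to input was 4.74 (3.86 to 5.83) at 30 min and 2.27 (1.69 to 3.03) at 60 min. The end strongest by mean CPM, at chr2:128463494, 4887 nt upstream, had 19.7, 11.1 and 15.0 CPM, a ratio of 1.31 (1.10 to 1.55) at 30 min and 0.736 (0.563 to 0.950) at 60 min. The outermost end was thus above input at both times, and its upstream partner was above input at 30 min and below it at 60 min. With mitochondrial reads in the totals, the partner would no longer be above input at 30 min. Its log2 ratio of 0.39 would move by -0.44, which leaves it about level with input. The outermost end held 42.4% of last-end counts in 4sU 30 min, 35.7% in 4sU 60 min, against 18.6% in input, a difference of 23.8 points (18.9 to 28.7) and 17.1 points (10.2 to 24.4) from input.

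Of the 3 inner ends of WDR33, the farthest pair was high at 30 min and low at 60 min. At chr2:128520688, 62081 nt upstream of the outermost end, there were 8.29 CPM in 4sU 30 min (80 counts), 2.11 CPM in 4sU 60 min (13 counts) and 1.68 CPM in input (55 counts). At chr2:128522045 there were 6.53 CPM (63 counts), 0.975 CPM (6 counts) and 3.63 CPM (119 counts). The 30 min library was the highest at both. The ratios to input at 30 min were 4.94 (3.46 to 7.09) and 1.80 (1.30 to 2.46), and at 60 min 1.26 (0.631 to 2.33) and 0.269 (0.0966 to 0.602). These ends were 3.92-fold (2.17 to 7.69) and 6.69-fold (2.91 to 18.9) lower at 60 than at 30 min. The inner end at chr2:128492958, from 11, 16 and 11 counts, was 3.39-fold (1.33 to 8.63) and 7.75-fold (3.38 to 18.5) higher than input. The WDR33 inner share differed by -5.89 points (-10.01 to -1.14) between 60 and 30 min. The interval included 0 with merging at 50 nt (-9.39 to 0.108), with a filter of 0.5 CPM (-9.74 to 0.803) and with all upstream counts (-7.20 to 4.78).

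The proximal last ends of NUDT21, CPSF6 and WDR33 lay 2538 to 4970 nt upstream of the outermost end of their gene. They held a smaller share of last-end counts in 4sU 30 min than in input. In PCF11 the outermost share was below input at 30 min (-8.99 points). In NUDT21 its difference from input at 60 min was 1.18 points (-5.80 to 8.80). In WDR33 the level of these proximal ends in nuclear CPM was above input at 30 min, though the interval of chr2:128463577 included 1. The ratio was 3.93 (2.03 to 7.68), called higher, at chr2:128463520. At chr2:128462863 it was 1.72 (1.31 to 2.24).

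Between the labelling times, 0 of the 18 inner ends were called higher at 60 than at 30 min and 8 were called lower, and 0 of the 18 last ends were called higher and 5 lower. Among all nuclear ends 8.12% were called higher and 18.0% lower. The 8 inner ends were a pair each in NUDT21, CPSF6, PCF11 and WDR33, and the retained ends of CSTF3 had none. For 60 over 30 min the median log2 ratio was -0.83 for inner ends and -0.48 for last ends, beside -0.35 for all ends. With TMM scaling, 4 inner ends were called higher and 6 lower, and 0 last ends were called higher and 2 lower, where 11.3% of all ends were called higher and 11.1% lower. The PCF11 pair was not among those 6.

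As whole genes, summed over all positions of the window, PCF11 and WDR33 were higher in captured RNA than in input. PCF11 had 75.9 CPM in 4sU 30 min, 51.0 CPM in 4sU 60 min and 27.6 CPM in input, a ratio of 2.75 (2.49 to 3.04) at 30 min and 1.85 (1.62 to 2.11) at 60 min. WDR33 had 91.1, 48.9 and 40.5 CPM, a ratio of 2.25 (2.06 to 2.45) and 1.21 (1.06 to 1.37). As log2 ratios these were 1.46 and 0.89 in PCF11 and 1.17 and 0.27 in WDR33. The median over all single nuclear ends that passed the filter was 0.97 at 30 min and 0.47 at 60 min. WDR33 was thus near that median at 30 min and below it at 60 min. With TMM scaling the 60 min interval of WDR33 included 0 (-0.015 to 0.35). With mitochondrial reads in the totals the 60 min log2 ratio of WDR33 turned from 0.27 to -0.15. The other genes were lower in captured RNA than in input. NUDT21 had 76.5, 41.9 and 88.3 CPM, CSTF3 68.8, 47.3 and 85.5 CPM, and CPSF6 63.6, 71.5 and 119.7 CPM in the order 4sU 30 min, 4sU 60 min and input. CPSF6 was the lowest relative to input at 30 min, 1.88-fold lower (1.73 to 2.05). Its ratio of 60 to 30 min was 1.12 with an interval that included 1 (0.992 to 1.27), where the other 4 were between 1.45- and 1.86-fold lower at 60 min. That interval depends on the scaling: the log2 ratio of CPSF6 was 0.17 on this scale, 0.42 (0.24 to 0.60) with TMM, 0.47 (0.29 to 0.65) with median-of-ratios factors and 0.18 (0.0050 to 0.36) with mitochondrial reads in the totals. The falls of the other 4 depend on it too. Their log2 ratios were -0.54 in CSTF3, -0.57 in PCF11, -0.87 in NUDT21 and -0.90 in WDR33. With TMM they were -0.28, -0.32, -0.61 and -0.64. The median over all single nuclear ends was -0.35 on the nuclear CPM scale.

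**Figure D4:**
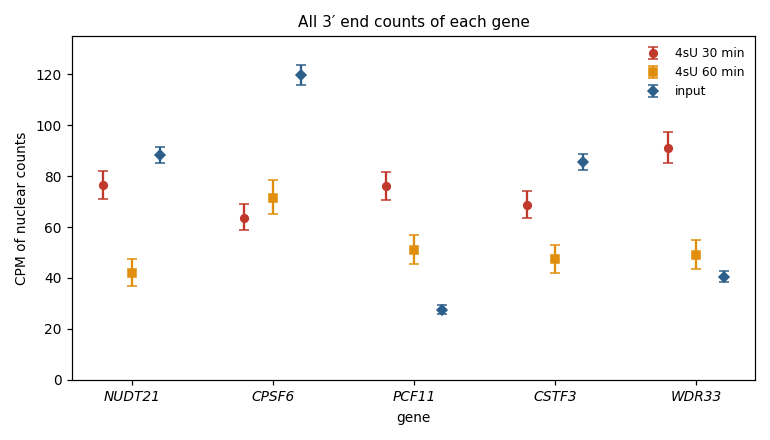
Sum of all 3′ end counts on the gene's strand in its window, in CPM of nuclear counts, for 4sU 30 min, 4sU 60 min and input from left to right within each gene, with exact Poisson 95% intervals. PCF11 and WDR33 are highest in 4sU 30 min (75.9 and 91.1 CPM), and NUDT21, CPSF6 and CSTF3 are highest in input (88.3, 119.7 and 85.5 CPM).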

How the data were processed

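Per the submitters' processing notes, the authors used cutadapt and Bowtie, with no versions or roles given. The sources used here name neither genome build nor treatment of multiply mapping reads. The authors deposited unnormalized read counts per genomic position and strand, 1 table per library, and the end coordinate was taken as the 1-based position. No molecular identifiers are named, so reads are not independent molecules. Totals were 14159691 (4sU 30 min), 8926568 (4sU 60 min) and 35410931 (input) counts.

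From these, 3′ ends were built over the whole table in Python 3.11.15 (pandas 2.3.3, numpy 2.4.6, scipy 1.17.1): the highest position took all free positions within 24 nt. An outermost end needed 1% of its gene's counts. Ratios carry exact 95% intervals of 2 Poisson counts, shares Wilson intervals, share differences Newcombe intervals, and odds ratios exact conditional intervals over inner and last counts. Calls needed a 2-fold ratio and an interval excluding 1. With 1 library per group no test across replicates exists. TMM factors came from edgeR 4.0.16. Functions were tested on simulated data. All 5 genes are named; for each, the strongest inner and last ends and the outermost end are given in full, and further ends were singled out after their values were seen. The genes and windows were chosen with earlier results of these data known. Other genes of the pathway were not analysed here, for want of an annotation of the build.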

Additional observations from a re-analysis of the deposited data

Results flagged for a closer look

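At the WDR33 inner end at chr2:128522045 the labelling times moved in opposite directions from input, with ratios of 1.80 at 30 min and 0.269 at 60 min. The WDR33 last end at chr2:128463494 did so too, with 1.31 and 0.736, but its 30 min log2 ratio of 0.39 is smaller than the shift of -0.44 that mitochondrial reads in the totals would bring. The difference between the times has no replicate test.

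Counts on the opposite strand of 3 windows, which no comparison above uses, were above the input at 30 min. So were many nuclear ends that passed the filter, with a median log2 ratio of 0.97 and 48.9% called higher at that time. In the WDR33 window the opposite strand was 4.90-fold (4.43 to 5.43) and 2.07-fold (1.78 to 2.40) its input level at 30 and 60 min, from 927, 249 and 642 counts in 4sU 30 min, 4sU 60 min and input. RefSeq lists SFT2D3 and RNY4P7 as overlapping WDR33, and the strongest end there, at chr2:128461405, had 565, 114 and 230 counts, 8.34-fold higher than input at 30 min. In the PCF11 window, where RefSeq lists ANKRD42-DT and PCF11-AS1 as overlapping PCF11, it was 2.94-fold and 2.98-fold, from 124, 80 and 143 counts. The end at chr11:82896841 on that strand lay 7 nt from the outermost PCF11 end. In the CSTF3 window it was 2.86-fold (1.38 to 5.87) at 30 min, from 16 counts against 19. At 60 min it was 1.68-fold, from 6 counts, with an interval that included 1 (0.550 to 4.38).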

How the results depend on the processing

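Under the alternatives run, 93 values of inner-share differences lay within the interval of the reported value, 12 lay outside it and 6 changed sign where the reported interval excluded 0, and all 39 values of the outermost-end share lay within it. Some of these values could not change, because the setting touched no retained end that enters them. For inner shares this was so at 2000 nt in PCF11 and CSTF3 and at 10000 nt in PCF11, CSTF3 and WDR33. It was also so without the end at 1 nucleotide in every gene but NUDT21. The PCF11 outermost-end share could not change at 2000 nt or at 5 CPM. Merging at 12 or 50 nt and a filter of 0.5 CPM moved no inner share beyond its interval. Where the reported interval included 0, the sign also changed for 60 min minus input in WDR33 at 0.5 CPM (1.03) and in CSTF3 at 5 CPM (-1.77). With last ends within 2000 nt, the 30 min difference from input was -5.77 points in NUDT21, -18.9 in CPSF6 and -15.1 in WDR33, the 60 min difference 5.02, -22.3 and -14.5, and the CPSF6 and WDR33 differences of 60 minus 30 min were -3.46 and 0.587. Within 10000 nt, NUDT21 was 10.4 points above input at 30 min. Without the end at 1 nucleotide, NUDT21 gave 10.6, 2.90 and -7.72 points for 30 min and 60 min minus input and 60 minus 30 min. At 5 CPM, PCF11 at 60 min minus input was 2.18 points, and NUDT21, CPSF6 and WDR33 had no inner end left. With all upstream counts, an alternative chosen after seeing the data, 30 and 60 min minus input were 18.6 and 11.1 points in CPSF6 and 14.9 and 13.7 in CSTF3, and WDR33 was 2.92 at 60 min, against -2.31 as reported. The WDR33 gene level at 60 min over input reversed to -0.15 (log2) with mitochondrial reads in the totals, the single change of sign among 60 alternatives of gene level, of which 30 others lay outside the reported interval and 29 within it. That total left 0 last ends called higher at 60 min over input (30.4% of all ends), and 1 inner end called higher at 60 over 30 min (8.26%). At 60 over 30 min 4 inner ends were higher and 2 last ends lower, with TMM (11.3% and 11.1% of all ends) and with median-of-ratios factors (12% and 10.1%). At 10 CPM 2 inner and 8 last ends were left. Of these 1 inner and 1 last end were higher and 0 inner and 3 last ends lower at 30 min over input (35.3% higher and 17.1% lower of all ends), 0 inner ends were higher and 0 inner and 5 last ends lower at 60 min over input (27.3% and 21.8%), and 1 inner and 2 last ends were lower at 60 over 30 min (14%). Merging at 12 nt left 1 inner end lower than input at 30 min (12.7% of all ends) and at 60 min (17.4%). Apart from fewer ends tested, the causes were not tested. Ends under 20 counts have wide intervals, and 4sU 60 min has the lowest total.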
